A study of Mus musculus with 6 samples.

Results

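The genes described here encode adhesion and activation molecules of the vessel wall: Vcam1, Icam1, Icam2, Sele, Selp, Cd34, Procr, Vwf, Esam and Pecam1. They were measured in whole ovaries of 8-month-old FORKO mice, in which all variants of the receptor for follicle-stimulating hormone (FSH) were deleted, and of wild-type (WT) mice. The females of both groups were offspring of heterozygous 129T2 svEmsJ parents, and both ovaries went into 1 RNA pool. Each group has 3 samples, named biological replicates 1 to 3 in the labels, and each RNA was run on an Affymetrix Mouse Genome array of its own. The sample titles and the genotype field give the groups, while free-text fields of the FORKO samples speak of wild-type mice, a conflict that the labels do not settle. The deletion is not restricted to the ovary or to a cell type by any label, and how many mice stand behind a sample is not stated, so that a p-value speaks of the scatter among these samples, which may be partly technical. The members were the probe sets whose platform annotation gives exactly 1 gene symbol equal to one of these names. All 10 genes had such a probe set, 14 probe sets in all, out of 18193 genes and 34945 probe sets with 1 symbol. Vcam1 and Selp each had 3. Where a gene had several, the one with the greatest mean over all 6 arrays stood for it and was thus selected on measured signal, with FORKO and WT arrays alike. The genes themselves were proposed with FORKO against WT results of these arrays known, so that their number and direction are a description.

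Leukocytes leave the blood in steps that depend on molecules which the endothelium displays on its surface. The selectins Sele (E-selectin) and Selp (P-selectin) let leukocytes tether and roll, and the immunoglobulin superfamily members Vcam1, Icam1 and Icam2 then bind leukocyte integrins and bring about firm adhesion. Pecam1 and Esam lie at endothelial cell junctions, and Cd34 is a sialomucin that can carry selectin ligands. Vwf, the von Willebrand factor, captures platelets, and Procr, the endothelial protein C receptor, promotes activation of the anticoagulant protein C. Inflammatory cytokines raise Vcam1, Icam1 and Sele in endothelium through the transcription factor NF-κB. In the ovary, vessels supply the theca layer of growing follicles and invade the corpus luteum after ovulation. None of these genes marks endothelium alone in every tissue: Vcam1 and Cd34 are also made by stromal cells, Icam1 by leukocytes and epithelia, Procr by some epithelial cells, and Vwf and Selp by megakaryocytes.

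Promoter sequences are shown for Icam1, Procr and Cd34, which were higher in FORKO ovaries and have an entry in the RefSeq promoter table (GRCm38.p6). Each runs from 250 bases before the annotated start to 50 bases after it, and all 3 lie on the plus strand. The Icam1 window is chr9:21015690-21015989, the Procr window is chr2:155750967-155751266, and the Cd34 window is chr1:194938571-194938870. Capitals mark matches to TATAAA, called the TATA box here, GGGCGG, called the GC box, TGACTCA, which is the AP-1 motif, and GGAANTTCC, which is the NF-κB core. Both strands were searched, and no 2 matches overlapped.
Icam1: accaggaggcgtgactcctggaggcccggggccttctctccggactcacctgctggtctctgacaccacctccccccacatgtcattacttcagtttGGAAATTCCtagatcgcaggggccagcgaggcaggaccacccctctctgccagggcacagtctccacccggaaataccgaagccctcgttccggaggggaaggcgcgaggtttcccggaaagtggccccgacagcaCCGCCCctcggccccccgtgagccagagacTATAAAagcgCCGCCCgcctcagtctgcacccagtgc
Procr: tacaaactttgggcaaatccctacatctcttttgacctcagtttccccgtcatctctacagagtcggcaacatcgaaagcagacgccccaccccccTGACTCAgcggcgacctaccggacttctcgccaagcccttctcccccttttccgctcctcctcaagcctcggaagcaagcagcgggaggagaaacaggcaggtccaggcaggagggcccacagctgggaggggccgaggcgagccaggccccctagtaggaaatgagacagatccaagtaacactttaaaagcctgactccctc
Cd34: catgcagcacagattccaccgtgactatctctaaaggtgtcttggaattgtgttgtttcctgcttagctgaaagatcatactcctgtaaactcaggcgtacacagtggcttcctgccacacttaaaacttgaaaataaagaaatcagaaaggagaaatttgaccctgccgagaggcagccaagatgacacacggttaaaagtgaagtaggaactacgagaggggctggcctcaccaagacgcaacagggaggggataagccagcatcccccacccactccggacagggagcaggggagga
The Icam1 window held 1 NF-κB core, GGAAATTCC, at -153 to -145 from the annotated start, as well as 2 GC boxes, at -17 to -12 and at 23 to 28, and a TATA box at 13 to 18, after the annotated start. The Procr window held an AP-1 match at -154 to -148, and the Cd34 window held none of these motifs. Among all 32851 promoter windows in the table, 0.928% held the NF-κB core, 5.20% the AP-1 motif, 13.6% the TATA box and 35.7% the GC box. The NF-κB consensus, a separate and longer motif, occurred in 4.51% of windows and in none of the 5 member windows in the table, which are those of Icam1, Sele, Selp, Cd34 and Procr. Of these 5, only the Icam1 window held the NF-κB core. The Sele window, not shown, held a TATA box and an AP-1 match, and the Selp window held none of the motifs. A match describes the letters in the window and is not evidence of binding.

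Signals below are MAS5 intensities scaled to the same trimmed mean per array, in array units. Log2 changes were taken as FORKO over WT after adding 5.73 to each signal, so that changes of dim probe sets come out too small. A call requires a limma adjusted p under 0.05 over all 22519 probe sets whose mean scaled signal reached 20.3. Of these, 372 passed (1.65%), 1.06% higher and 0.595% lower in FORKO ovaries, so that 64.0% of the calls were higher. That share was 50.4% under scaling to equal medians and 86.6% under scaling to bacterial spikes, where the median log2 change of all genes was 0.16 in place of -0.02. Fshr, the deleted gene, read 1.20, 11.2 and 11.7 on FORKO arrays 1 to 3 and 99.6, 59.5 and 118.8 on WT arrays (log2 change -2.90, limma adjusted p = 0.0102). The FORKO mean of Fshr, 8.04, lay under the minimum, so that Fshr was tested only through its WT signals. Whether its probes match the deleted stretch is not known here, so that they may not check the deletion. FORKO replicate 1 stood apart from the other FORKO arrays, with correlations of 0.934 and 0.936 across probe sets, against 0.976 between FORKO replicates 2 and 3 and 0.966 to 0.969 within WT. Arrays carry no counts, and their number limits the precision.

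Vcam1 showed the largest change among these genes. Its standing probe set read 1364, 1198 and 1195 on FORKO arrays 1, 2 and 3, against 380, 195 and 290 on WT arrays. Every FORKO array lay far above the highest WT array, and the FORKO arrays lay close together. Means were 1252 ± 96.8 in FORKO and 288 ± 92.5 in WT ovaries (SD, n = 3 each), a log2 change of 2.14 ± 0.23 (SE, limma adjusted p = 0.00358). An exact permutation test (two-sided) gave p = 0.1, which is as small as 3 arrays against 3 can reach.

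**Figure D1:**
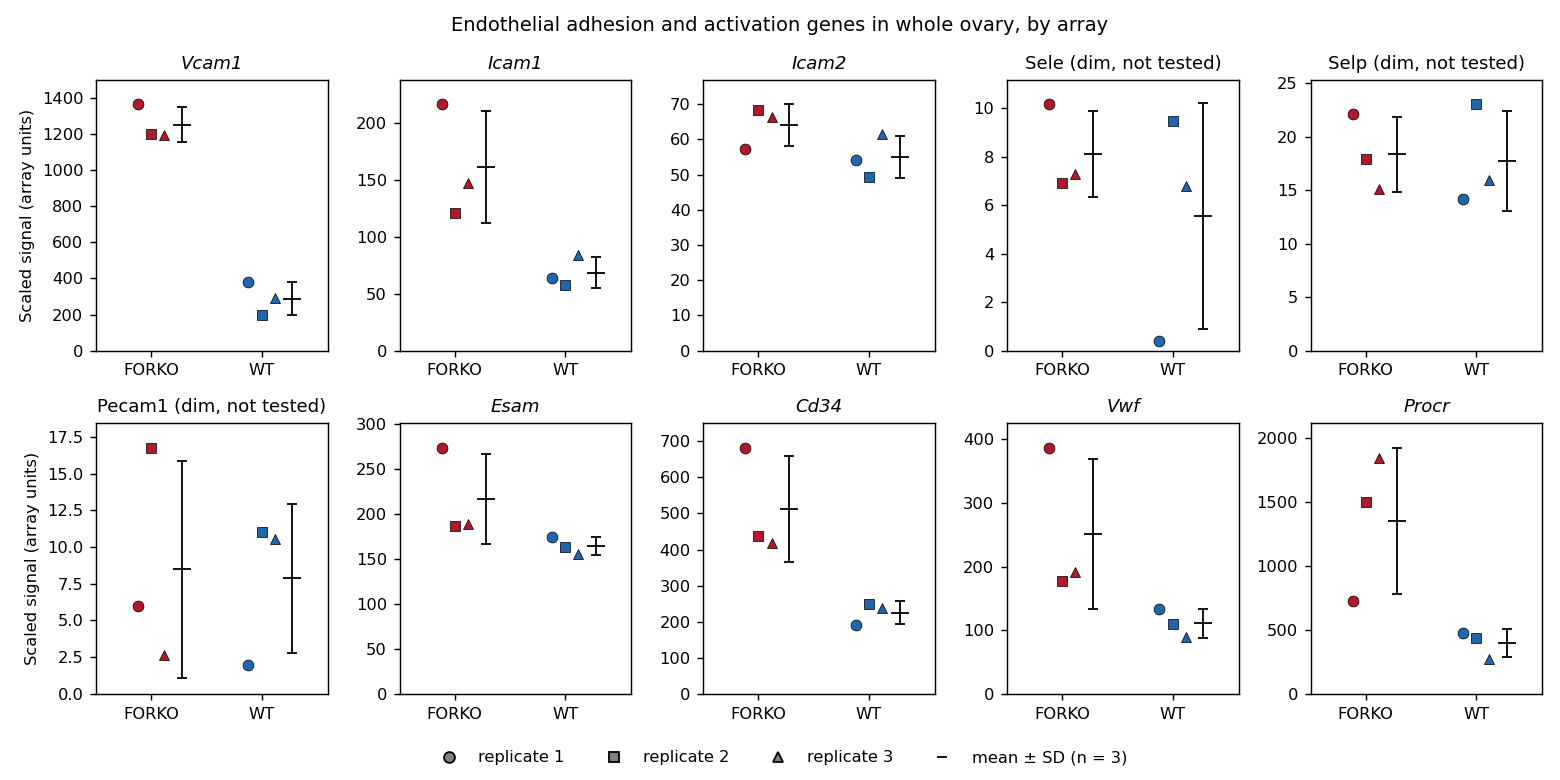
Scaled signal (linear axes from 0) of the standing probe set of each gene on the 3 FORKO and 3 WT arrays. Symbols mark replicate numbers, and bars give mean ± SD. FORKO and WT arrays do not overlap for Vcam1, Icam1, Esam, Cd34, Vwf and Procr, and they overlap for Icam2 and for the dim genes Sele, Selp and Pecam1.

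The other 2 Vcam1 probe sets moved the same way by different amounts. Probe set 1415989_at read 165, 153 and 140 on FORKO arrays and 35.9, 40.1 and 64.4 on WT arrays (Vcam1 log2 change 1.63 ± 0.23, SE; limma adjusted p = 0.0105, and 0.0605 without WT replicate 2). Probe set 1451314_a_at, whose suffix denotes a design that may detect alternative transcripts of the gene, read 223, 180 and 125 on FORKO arrays and 9.86, 11.1 and 17.8 on WT arrays. Its Vcam1 log2 change was 3.27 ± 0.26 (SE, limma adjusted p = 0.00104). The groups did not overlap on any of the 3 probe sets. Among all probe sets tested 20.4% had no overlap, 9.99% with FORKO higher and 10.4% with FORKO lower. The WT mean of 1451314_a_at, 12.9, lay under the minimum of 20.3, so that this probe set was tested only because its FORKO signals were high. The 95% intervals of the change were 1.13 to 2.13 for 1415989_at and 2.69 to 3.85 for 1451314_a_at, and the difference between them was not tested. The standing Vcam1 probe set passed in all 18 alternative fits, with log2 changes of 1.89 to 2.37 and adjusted p of 2.52e-04 to 0.0276 in limma.

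**Figure D2:**
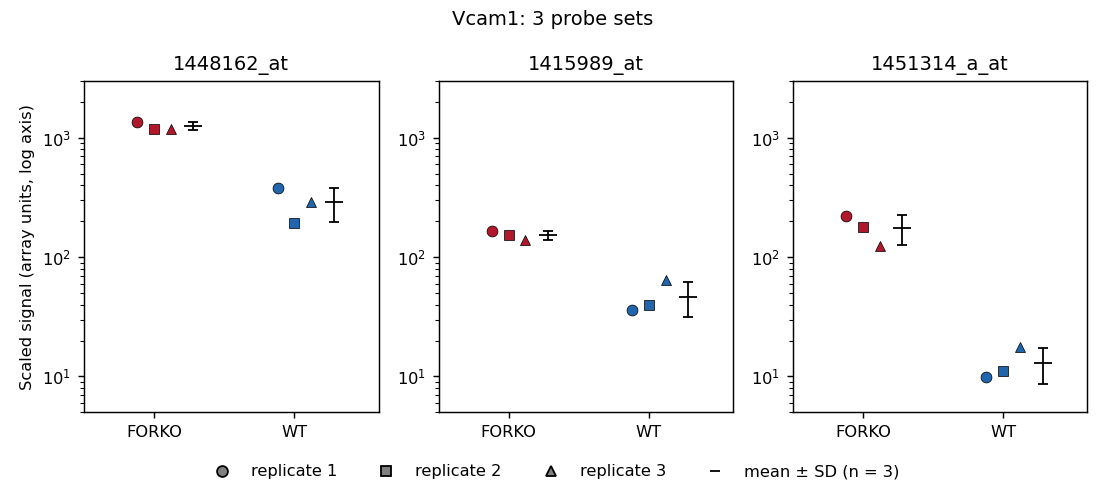
Scaled signal (log axes) of the 3 Vcam1 probe sets on FORKO and WT arrays, with mean ± SD (n = 3). FORKO arrays lie above WT arrays on each, and the gap is widest for 1451314_a_at, with means of 176 in FORKO and 12.9 in WT ovaries.

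Icam1, the ligand of the leukocyte β2 integrins, read 217, 121 and 147 on FORKO arrays and 63.9, 57.6 and 83.8 on WT arrays. FORKO replicate 1 was the highest, and all FORKO arrays exceeded all WT arrays. The means were 162 ± 49.3 in FORKO and 68.4 ± 13.7 in WT ovaries (SD, n = 3 each), and the Icam1 log2 change was 1.15 ± 0.24 (SE, limma adjusted p = 0.0496). The call sat at the threshold: Icam1 passed in 7 of 18 alternative fits, with log2 changes of 0.93 to 1.34 and limma adjusted p of 0.0171 to 0.204. Among fits that left out 1 array, it passed without FORKO replicate 1 (limma adjusted p = 0.0328) and without FORKO replicate 2 (0.0441). It did not pass without FORKO replicate 3 (0.114) or without WT replicate 1, 2 or 3 (0.160, 0.204 and 0.0973).

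Icam2, a β2 integrin ligand that resting endothelium makes constitutively, read 57.3, 68.4 and 66.3 on FORKO arrays and 54.3, 49.4 and 61.4 on WT arrays. The groups overlapped, and Icam2 did not pass (log2 change 0.20, 95% interval -0.22 to 0.62, limma adjusted p = 0.689). That interval lies wholly below the interval of Vcam1, 1.64 to 2.65, and just overlaps that of Icam1, 0.61 to 1.69; the differences between genes were not tested.

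Both selectins lay under the minimum signal and were not tested. Sele read 10.2, 6.93 and 7.29 on FORKO arrays and 0.415, 9.48 and 6.80 on WT arrays. The standing Selp probe set read 22.1, 17.9 and 15.1 on FORKO arrays and 14.2, 23.0 and 15.9 on WT arrays. The other 2 Selp probe sets ranged from 2.62 to 16.6 in FORKO and from 4.15 to 14.1 in WT ovaries. The groups overlapped on all 4 selectin probe sets, and signals this low cannot show whether the transcripts differed. When the filter was dropped, Sele and Selp did not pass (limma adjusted p = 0.778 and 0.975).

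At the cell junctions and surface, Cd34 differed most. It read 683, 437 and 418 on FORKO arrays and 190, 249 and 238 on WT arrays. All FORKO arrays exceeded all WT arrays, with FORKO replicate 1 the highest. Cd34 averaged 513 ± 147 in FORKO and 226 ± 31.0 in WT ovaries (SD, n = 3 each; log2 change 1.14 ± 0.22, SE; limma adjusted p = 0.0349). It passed in 10 of 18 alternative fits (limma adjusted p = 0.0124 to 0.133). Of the fits without 1 array, Cd34 passed without FORKO replicate 1 (limma adjusted p = 0.0137). It did not pass without FORKO replicate 2 or 3 (0.0532 and 0.0615) or WT replicate 1, 2 or 3 (0.133, 0.116 and 0.112).

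Esam, a junctional adhesion molecule of endothelium, read 273, 187 and 189 on FORKO arrays and 175, 163 and 155 on WT arrays. The groups did not overlap, but FORKO replicates 2 and 3 exceeded the highest WT array by only a small margin. Esam did not pass (log2 change 0.36, 95% interval -0.07 to 0.80, limma adjusted p = 0.430). Without FORKO replicate 1 its log2 change was 0.19. Pecam1, the junctional protein CD31 that is widely used to identify endothelium, had 1 probe set, and it was dim. It read 6.01, 16.8 and 2.64 on FORKO arrays and 1.97, 11.04 and 10.6 on WT arrays, with overlapping groups, so that Pecam1 could not be measured here. The dim signal is that of 1 probe set, and other genes of these cells varied. Cldn5 and Cd93 were well above the minimum. Nos3 lay nearer to it, with means of 29.3 in FORKO and 29.0 in WT ovaries. Tie1 and Tal1 were under the minimum.

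The haemostatic genes differed in how the FORKO arrays were ordered. Procr read 724, 1497 and 1840 on FORKO arrays and 478, 438 and 271 on WT arrays. All FORKO arrays exceeded all WT arrays, and here FORKO replicate 1 was the lowest of its group. Procr averaged 1354 ± 572 in FORKO and 396 ± 110 in WT ovaries (SD, n = 3 each; log2 change 1.70 ± 0.33, SE; limma adjusted p = 0.0395). Without FORKO replicate 1 the log2 change was 2.09 (limma adjusted p = 1.94e-04). Procr did not pass in the other 5 fits without 1 array (limma adjusted p = 0.0912 to 0.141), and it passed in 8 of 18 alternatives in all. Its probe set carries the suffix _s_at, a design whose probes may be shared by more than 1 transcript.

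Vwf read 387, 177 and 191 on FORKO arrays and 134, 110 and 89.3 on WT arrays. FORKO replicate 1 stood far above the other 2, yet all FORKO arrays exceeded all WT arrays. The means were 252 ± 117 in FORKO and 111 ± 22.4 in WT ovaries (SD, n = 3 each), and Vwf did not pass (log2 change 1.07, 95% interval 0.41 to 1.72, limma adjusted p = 0.118). With the replicate number as a block it passed (limma adjusted p = 0.0316), as it did when arrays were scaled to bacterial spikes (0.0332). Without FORKO replicate 1 its log2 change was 0.72 (limma adjusted p = 0.0861).

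In all, 7 of the 10 genes had a standing probe set past the filter, and 4 of the 7 rose: Vcam1, Procr, Icam1 and Cd34. None fell. Over all 11202 genes tested 2.14% passed, 1.30% higher and 0.839% lower in FORKO ovaries, and 47.5% had a positive change. The groups did not overlap, with FORKO higher, for 6 of the 7. Among all genes tested 22.6% had no overlap, 10.7% with FORKO higher and 12.0% with FORKO lower. The median change of the 7 was 1.14 on the log2 scale, against -0.02 over all genes tested. The 7 genes were 0.20 to 2.14 higher on the log2 scale, and none changed sign under any alternative. Because the genes were chosen with results of these arrays known, these counts are a description of the list.

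Genes that identify endothelium were set beside them. Of 21 pan-endothelial genes, chosen as genes of vessel identity and vessel signalling, 19 were past the filter and none passed (0 rose, 0 fell). The median log2 change was -0.0051, and 0.18 under bacterial spike scaling. The summed signal of the 21 genes was 2281 to 2654 on FORKO arrays and 2298 to 2337 on WT arrays. Relative to the WT mean, the median of these genes was -0.13 on FORKO array 1, 0.19 on array 2 and 0.26 on array 3. Changes were positive for 9 and negative for 10 of the 19. With bacterial spike scaling 17 of the 19 were positive, against 8005 of all 11202 genes tested. The groups did not overlap with FORKO higher for 2, Kdr and Gpihbp1, and with FORKO lower for 0. Among all genes tested these shares were 10.7% and 12.0%. The 2 largest changes were those of Gpihbp1, the capillary anchor of lipoprotein lipase (0.55, limma adjusted p = 0.365), and Ecscr (0.44, 0.419). Gpihbp1 was tested only through its FORKO signals, since its WT mean of 15.9 lay under the minimum. The following 6 genes were picked for their wide use as markers after the values were seen. Kdr, the VEGF receptor VEGFR2, averaged 238 ± 7.49 in FORKO and 192 ± 26.5 in WT ovaries. Tek, the angiopoietin receptor, averaged 123 ± 30.4 in FORKO and 109 ± 20.8 in WT ovaries (SD, n = 3 each). The tight junction gene Cldn5 averaged 418 ± 74.1 in FORKO and 366 ± 36.5 in WT ovaries. Cdh5, the endothelial cadherin, read 18.8, 44.8 and 54.3 on FORKO arrays and 29.9, 32.4 and 43.3 on WT arrays. The other 2 had negative changes that did not pass. Flt1, the VEGF receptor VEGFR1, averaged 47.1 ± 9.02 in FORKO and 56.6 ± 13.3 in WT ovaries, and Eng, the co-receptor endoglin, 79.5 ± 18.9 in FORKO and 80.2 ± 19.6 in WT ovaries (SD, n = 3 each). In whole tissue, fewer or more cells of a type cannot be told apart from less or more RNA per cell, and this holds for every gene given here.

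**Figure D3:**
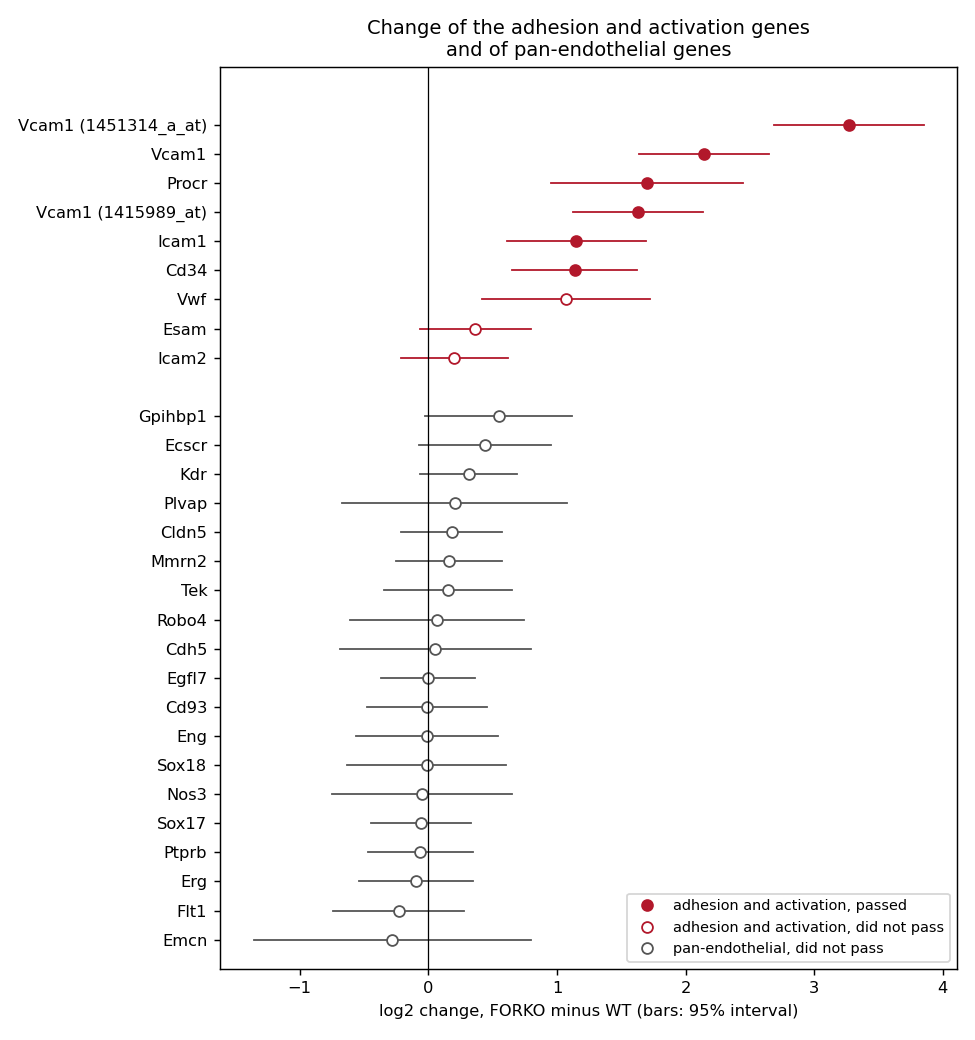
Log2 change (FORKO minus WT) with 95% intervals for the 9 member probe sets past the filter, sorted from the largest change at the top, and below them for 19 pan-endothelial genes. Filled points passed limma's test. Changes of the member probe sets run from 0.20 (Icam2) to 3.27 (Vcam1 1451314_a_at), and those of the pan-endothelial genes from -0.28 (Emcn) to 0.55 (Gpihbp1).

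Lymphatic endothelial genes were also examined, since lymphatics share several of these adhesion molecules. Of 6 genes, 4 were past the filter, none passed, and the median log2 change was 0.51. Mmrn1, a secreted protein of lymphatic endothelium and platelets, read 157, 144 and 146 on FORKO arrays and 73.0, 90.3 and 92.9 on WT arrays, without overlap (log2 change 0.77, limma adjusted p = 0.0655). Lyve1, the hyaluronan receptor of lymphatic endothelium and some macrophages, averaged 53.8 ± 16.6 in FORKO and 35.0 ± 5.93 in WT ovaries (SD, n = 3 each; limma adjusted p = 0.373). Mmrn1 passed with bacterial spike scaling (limma adjusted p = 0.0342).

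Genes for binding partners of these molecules had mostly positive changes. Of 12 genes encoding integrins and other ligands that engage Vcam1, the Icams or the selectins, 10 were past the filter and none passed. Changes were positive for 9 of the 10 (median 0.56 on the log2 scale), against 47.5% of all genes tested. Relative to the WT mean, the list median was 1.17 on FORKO array 1, 0.28 on array 2 and 0.45 on array 3. The groups did not overlap with FORKO higher for 3 and with FORKO lower for 1, against 10.7% and 12.0% of all genes tested. The 1 lower, named after its values were seen, was Itga9. Itga9 read 144, 228 and 222 on FORKO arrays and 313, 325 and 279 on WT arrays (log2 change -0.64, limma adjusted p = 0.182). Spn, the sialophorin CD43 of leukocytes, read 88.3, 47.6 and 53.3 on FORKO arrays and 27.4, 21.2 and 16.4 on WT arrays. The groups did not overlap (Spn log2 change 1.30 ± 0.27, SE; limma adjusted p = 0.0506), and Spn passed with the replicate block (limma adjusted p = 0.0277) and without FORKO replicate 1 (0.0466). Itgb2, the β2 integrin chain that binds Icam1 and Icam2, read 485, 119 and 167 on FORKO arrays and 121, 95.1 and 76.2 on WT arrays. The groups overlapped, since FORKO replicate 2 lay below WT replicate 1, and FORKO replicate 1 was far above the others (limma adjusted p = 0.268).

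Among 4 proteases of the ADAM family, which include enzymes that shed adhesion molecules from the cell surface, Adam8 rose and 3 did not pass. The share of all genes tested that rose was 1.30%. Adam8, a leukocyte-rich member, read 101, 47.4 and 52.2 on FORKO arrays and 22.0, 17.8 and 20.1 on WT arrays (log2 change 1.43 ± 0.28, SE; limma adjusted p = 0.0410). The WT mean of Adam8, 19.98, lay just under the minimum of 20.3, so that Adam8 was tested only through its FORKO signals. The call was lost with quantile normalization (limma adjusted p = 0.0538), with scaling to equal medians (0.0591), with the pseudocount at the pooled median (0.0502) and with no dim filter (0.0886). It was also lost without FORKO replicate 3 (limma adjusted p = 0.0815) and without WT replicate 1, 2 or 3 (0.116, 0.171 and 0.129). The sheddases Adam10 and Adam17 did not pass (limma adjusted p = 0.989 and 0.734).

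Of 13 other genes of haemostasis, 9 were past the filter, 1 rose and 8 did not pass (median 0.23), with 5 positive and 4 negative changes. The share of all genes tested that rose was 1.30%. The groups did not overlap with FORKO lower for 2 of the 9, against 12.0% of all genes tested. These 2 were named after their values were seen. They were Tfpi, the inhibitor of the tissue factor pathway (log2 change -0.72, limma adjusted p = 0.105), and F3, tissue factor itself (-0.81, 0.166). The 1 that rose was Ptgis, the prostacyclin synthase, whose product inhibits platelets and dilates vessels. Ptgis read 2479, 1339 and 1386 on FORKO arrays and 487, 433 and 545 on WT arrays, without overlap (log2 change 1.76 ± 0.23, SE; limma adjusted p = 0.00990). Ptgis passed in every fit without 1 array but that without WT replicate 2 (limma adjusted p = 0.0568). Of 14 further adhesion molecules of vessels and neighbouring cells, 11 were past the filter and none passed (median 0.14). The largest change was that of Alcam, the activated leukocyte cell adhesion molecule, which averaged 160 ± 50.5 in FORKO and 67.2 ± 17.3 in WT ovaries (SD, n = 3 each; log2 change 1.17; limma adjusted p = 0.0717). Alcam passed with the replicate block (limma adjusted p = 0.02) and without FORKO replicate 2 (0.034). F11r, a junctional adhesion molecule, had a log2 change of 0.61 (limma adjusted p = 0.331).

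Genes of the cytokine and NF-κB response were examined next. Of 18 genes, 14 were past the filter, none passed, and the median log2 change was 0.61. All 14 had a positive change, against 47.5% of all genes tested. Under scaling to equal medians 13 of 14 were positive. Nfkb2 and Il1b had WT means of 16.0 and 17.2, under the minimum, and were tested only through their FORKO signals. The list median relative to the WT mean was 0.89 on FORKO array 1, 0.23 on array 2 and 0.44 on array 3. The summed signal was 7212, 4090 and 5285 on these arrays and 3555 to 4446 on WT arrays, so that FORKO replicate 1 was the highest. Cxcl1, a neutrophil chemokine, read 318, 78.6 and 112 on FORKO arrays and 65.4, 40.5 and 64.4 on WT arrays (log2 change 1.27, limma adjusted p = 0.207). Nfkb2, an NF-κB subunit, averaged 36.5 ± 4.63 in FORKO and 16.0 ± 10.9 in WT ovaries (SD, n = 3 each; log2 change 1.06; limma adjusted p = 0.180). The cytokine genes Tnf and Il6 and the chemokine gene Ccl2 were under the minimum signal. Tnf averaged 6.33 in FORKO and 10.2 in WT ovaries, and Il6 4.14 in FORKO and 5.40 in WT ovaries. Ccl2 went the other way, with means of 11.95 in FORKO and 6.18 in WT ovaries.

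Markers of other cell types were set beside these results, leukocytes first. Of 11 leukocyte markers, 9 were past the filter, none passed, and all 9 had a positive change (median 0.53), against 47.5% of all genes tested. The summed signal of the leukocyte markers was 8067, 2961 and 4148 on FORKO arrays 1, 2 and 3 and 2961 to 3527 on WT arrays. Cd52 read 638, 150 and 369 on FORKO arrays and 116, 64.2 and 126 on WT arrays (limma adjusted p = 0.109), and Cd14 averaged 139 ± 48.3 in FORKO and 65.3 ± 12.9 in WT ovaries (SD, n = 3 each; limma adjusted p = 0.0991). Both passed with the replicate block (limma adjusted p = 0.0168 and 0.0298), and Cd52 also passed without FORKO replicate 2 (0.0193). The B and T cell markers Cd79a and Cd3e were under the minimum signal, and no listed marker read 0 on all arrays. FORKO replicate 1 was thus highest for leukocyte markers and for Icam1, Cd34, Vwf and Esam. FORKO replicate 2, in which the leukocyte median was -0.05 relative to the WT mean, had log2 values of 2.08 for Vcam1, 0.79 for Icam1, 0.95 for Cd34 and 1.95 for Procr above the WT mean. What part leukocyte RNA has in the values of replicate 1 was not tested.

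Surface epithelium, which covers the ovary, was checked in the same way. Of 10 surface epithelium genes, all past the filter, 2 rose, all 10 had a positive change, and the median was 1.01 on the log2 scale. Shares over all genes tested were 1.30% for genes that rose and 47.5% for a positive change. Of the 10, Msln, Lrrn4 and Muc16 had WT means under the minimum and were tested only through their FORKO signals. The summed signal was 2220, 1337 and 1449 on FORKO arrays 1, 2 and 3 and 736 to 809 on WT arrays. The list median relative to the WT mean was 1.58 on FORKO array 1, 0.55 on array 2 and 0.80 on array 3, so that it was highest on the array where Icam1, Cd34 and Vwf were highest. The keratin gene Krt8 had a log2 change of 1.07 (limma adjusted p = 0.0155) and its partner Krt18 one of 1.15 (0.0322). Krt8 did not pass without WT replicate 1, 2 or 3 (limma adjusted p = 0.053, 0.0568 and 0.0643) or without FORKO replicate 3 (0.0586). Krt18 passed only without FORKO replicate 1 among the fits without 1 array, and had a limma adjusted p of 0.0537 to 0.149 in the other 5. It was also lost with scaling to equal medians (limma adjusted p = 0.0553) and with no intensity trend (0.0531). The part of surface epithelium in the changes of Icam1, Procr or other members was not tested. Stromal fibroblast genes had a median of -0.35 over 8 genes, 3 positive and 5 negative, and none passed. The groups did not overlap for 4 of them, 2 with FORKO higher and 2 with FORKO lower. Among all genes tested the shares were 10.7% higher and 12.0% lower. Named after their values were seen, the 2 higher were the proteoglycan gene Dcn (log2 change 0.47, limma adjusted p = 0.105) and the growth factor receptor gene Pdgfra (0.45, 0.204). Lum, the matrix proteoglycan lumican, read 70.8, 494 and 485 on FORKO arrays and 613, 1170 and 1128 on WT arrays (limma adjusted p = 0.212, and 0.0367 with the replicate block). Col1a1, a collagen I chain, had a log2 change of -0.94 (limma adjusted p = 0.289). The summed stromal signal was 7338 to 9050 on FORKO and 7005 to 8225 on WT arrays.

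Genes of mural cells, the pericytes and smooth muscle that surround vessels, had negative changes in 9 of 9 measured cases and none passed (median -0.39). The share of positive changes over all genes tested was 47.5%. With bacterial spike scaling 3 of the 9 were positive, against 8005 of all 11202 genes tested. Cnn1, a smooth muscle calponin whose FORKO mean lay under the minimum, read 21.9, 3.19 and 23.3 on FORKO arrays and 47.3, 43.7 and 47.8 on WT arrays (limma adjusted p = 0.140). Pdgfrb, the receptor that marks pericytes, read 115, 333 and 285 on FORKO arrays and 434, 434 and 395 on WT arrays (limma adjusted p = 0.249). The summed mural signal was 1441 to 3310 on FORKO and 2905 to 3457 on WT arrays. Of 8 platelet genes, which bear on Selp and Vwf, only Itga2b and Pf4 were past the filter, and neither passed (limma adjusted p = 0.598 and 0.410). The groups did not overlap with FORKO higher for 1 of these 2, Pf4, against 10.7% of all genes tested. The platelet list summed to 259 to 320 on FORKO and 193 to 243 on WT arrays. The 5 genes under the minimum went both ways. Means were higher in FORKO ovaries for Itgb3, Gp1bb and Gp9 and lower for Ppbp and Gp6. Gp1bb, named after its values were seen, read 5.14, 33.9 and 26.3 on FORKO arrays and 4.57, 11.9 and 14.2 on WT arrays. The platelet receptor genes Gp9 and Gp6 read at most 10.9 on every array.

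**Figure D4:**
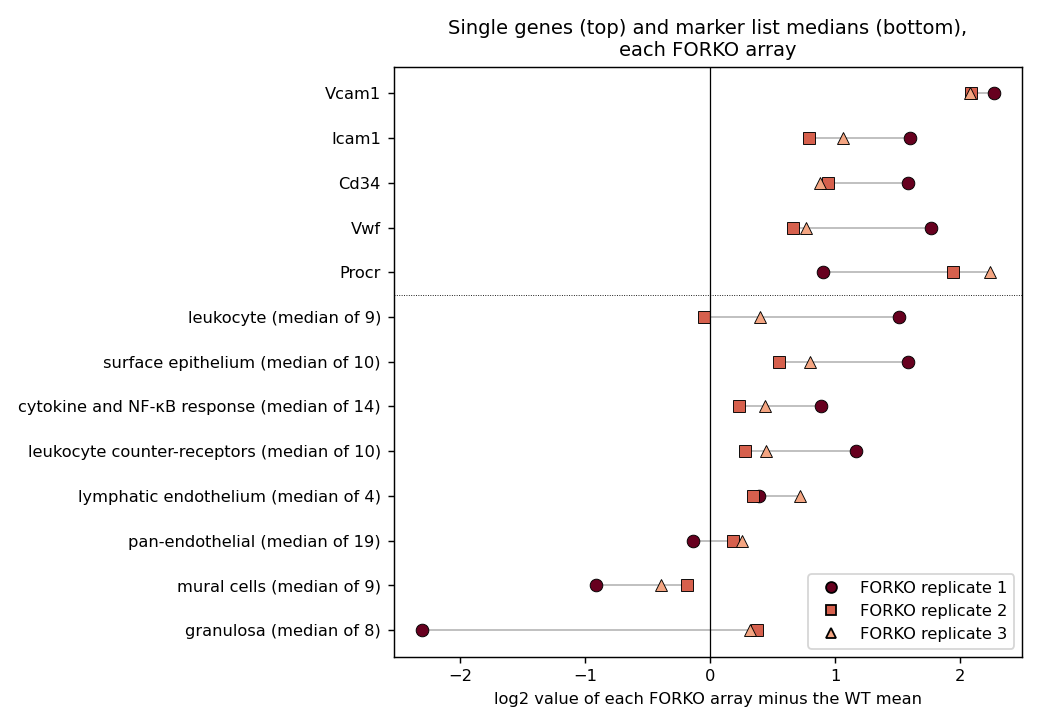
Log2 value of each FORKO array minus the WT mean for 5 single genes (top) and for the median of each marker list (bottom). FORKO replicate 1 is the highest for Icam1, Cd34, Vwf and the leukocyte list (1.51) and the lowest for Procr and the granulosa list (-2.30), while Vcam1 lies between 2.08 and 2.27 on all 3 arrays.

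Ovarian cell lists also differed between the FORKO arrays. Relative to the WT mean, the granulosa list had a median of -2.30 on FORKO array 1, 0.38 on array 2 and 0.32 on array 3. Of its 8 genes past the filter Fshr fell and 7 did not pass, with 3 positive and 5 negative changes. The groups did not overlap with FORKO higher for 2 and with FORKO lower for 2, against 10.7% and 12.0% of all genes tested. The 2 higher, named after their values were seen, were Foxl2 and Amhr2. On FORKO array 1 Foxl2 read 850, against 626 to 810 on WT arrays, and Amhr2 read 2841, against 1550 to 1745. Of 6 luteal and theca genes, 1 fell, Fdx1, a ferredoxin that passes electrons to steroidogenic P450 enzymes (log2 change -0.63, limma adjusted p = 0.0299) and 5 did not pass. The share of all genes tested that fell was 0.839%. Fdx1 did not pass without WT replicate 1, 2 or 3 (limma adjusted p = 0.122, 0.136 and 0.0974) or FORKO replicate 2 (0.0773). The Fdx1 call was also lost with bacterial spike scaling (limma adjusted p = 0.1), with no dim filter (0.143) and with no intensity trend (0.119). The summed signal of the luteal and theca genes was 12349 to 13709 on FORKO and 17281 to 17707 on WT arrays. Without FORKO replicate 1, Vcam1, Procr, Icam1 and Cd34 passed with log2 changes of 2.08, 2.09, 0.93 and 0.91.

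The genes whose pattern over the 6 arrays was most like that of the standing Vcam1 probe set were sought among the other 11201 genes tested, by the root mean square difference of mean-centred log2 values. The closest was Gm13306, a gene with a predicted-gene name, at 0.138 log2 units. It read 141, 166 and 148 on FORKO arrays and 43.4, 23.0 and 31.9 on WT arrays. Cyp4f15, a cytochrome P450 gene, followed at 0.205, and Itih2, which encodes a heavy chain of the hyaluronan-binding inter-α-trypsin inhibitors, at 0.226. Their log2 changes were 2.06, 2.33 and 1.72. Cyp4f15 read 17.3, 2.92 and 11.7 on WT arrays, all under the minimum signal. Cyp4f15 was thus tested only through its FORKO signals. All 3 genes were selected for likeness over so few arrays, and the likeness is a description.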

How the data were processed

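Whole-ovary RNA of 3 FORKO and 3 WT samples was measured on Affymetrix arrays, 1 array per sample. The deposited values are array intensities on a linear scale, made with MAS5 by the authors, per the submitters' processing notes; no scaling target or detection call is stated there. Arrays were brought to a common mean computed without the lowest and highest 2% of signals, and log2(signal + 5.73) was taken, the pseudocount being the pooled 25th percentile. After removal of 64 control probe sets, the 22519 probe sets with a mean of at least 20.3 were tested two-sided by lmFit and trended eBayes of limma 3.58.1 (R 4.3.3), with Benjamini-Hochberg adjustment. Tested on simulated data, this recovered 80.9% of simulated log2 changes of size 2 and 28.9% of those of size 1. Genes were named from the platform annotation (1 symbol for 34958 probe sets, several for 932, none listed for 9211), and all 10 members matched the GRCm38.p6 table by Entrez identifier. The members and gene lists were chosen with earlier results of these data known. Genes named from a list were up to 4 passing genes by size of change, or, in a list with no passing gene, the 2 that changed by most; others are said to be picked afterwards or are named as undetected, reference or best known members. Same-numbered arrays deviated together (r = 0.195, 0.134 and 0.358 for numbers 1, 2 and 3, all above 0.1), which meets the rule for pairs on the data alone, as no label states a pairing. All p-values given are nonetheless from the fit without a replicate block unless the block is named. No 2 arrays were identical. Figures were drawn with matplotlib 3.10.9.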

Additional observations from a re-analysis of the deposited data

How the results depend on the processing

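Of the 7 genes tested, all kept a positive change under every alternative in which they could be tested; Icam2 could not be tested with the filter at the 75th percentile. The 4 genes that rose became 2 with scaling to equal medians (Vcam1 and Procr) and 2 with the filter at the 75th percentile (Vcam1 and Cd34). The count was 1, Vcam1, with no dim filter and with no intensity trend, and it ranged from 1 to 4 when 1 array was left out. Vcam1 was the member that passed in all of them. With the replicate block 5 passed, Vwf being added, and the block changed the call of no other tested member. The causes were not tested. The 372 probe sets became 647 with bacterial spike scaling, 221 with no dim filter, 191 with the filter at the 75th percentile and 692 with the replicate block, of which 363 were shared. Without 1 array the count ranged from 62 (without WT replicate 2) to 864 (without FORKO replicate 1). Fshr ranged from -3.17 to -2.47 on the log2 scale without 1 array, and limma gave an adjusted p of 0.0525 when WT replicate 1 was left out and 0.0598 when WT replicate 3 was. Signals near the pseudocount limit what can be said of Sele, Selp and Pecam1.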
